A study of Mus musculus with 6 samples.

Results

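Megakaryocytes are the marrow cells that shed platelets, and the genes described here encode the adhesion receptors, granule proteins, agonist receptors, enzymes and structural proteins that platelets carry. The list held 32 genes, chosen by name, and 29 of them were measured, among 18193 genes in all. Gp1ba, Ptgs1 and Serpine2 were not analysed here. The cells were LKS+ cells of mouse marrow, sorted as negative for lineage markers, high for c-Kit and positive for Sca-1, a compartment that holds blood stem cells and multipotent progenitors. The groups were 3 arrays from Apcmin mice and 3 from wild-type (WT) mice, 1 array per mouse as far as the labels tell. The Min allele of Apc is a germline mutation, so in Apcmin mice the marrow stroma carries it as well as the blood cells. Apc encodes a scaffold of the complex that marks beta-catenin for destruction. The labels used here name no age or strain. By its title, the series asks about blood stem cells in this mutant, which it presents as a model for MPD/MDS, that is, for myeloproliferative and myelodysplastic disease. Apc itself was at 7.87, 7.82 and 7.70 in Apcmin arrays and at 7.61, 7.76 and 7.78 in WT arrays, and since the Min allele is a point mutation its level is no check of the genotype.

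Platelet adhesion begins when the GPIb-IX-V complex binds von Willebrand factor and glycoprotein VI binds collagen. Integrin alphaIIb-beta3 then binds fibrinogen, and ADP, thrombin and thromboxane recruit further platelets while granules release their stored proteins. Some of these genes are already transcribed in stem cells of mouse marrow, where von Willebrand factor marks cells with a bias towards platelet production.

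Each gene was represented by its brightest probe set, and values are log2 intensities. Intensities of different probe sets depend on the probes as well as on the RNA, so a level was read against a background of genes of other tissues and not against another gene. The 31 measured genes of other tissues, such as those for albumin and insulin, had a median of 3.22 and a 95th percentile of 6.69 over the 6 arrays. A mean log2 intensity of at least 6 over all 6 arrays was taken as expressed, and 47.6% of all genes reached it. So did 3 of the 31 genes of other tissues, with Cela1 and Pmch the brightest, at means of 7.96 and 6.97. Of 13 measured genes of stem and multipotent cells, 12 reached 6, though Slamf1, at 6.02, lay below the 95th percentile of the genes of other tissues and Fgd5, at 5.9998, missed the threshold. Cd34, the brightest, averaged 10.94 ± 0.11 (SD, n = 3) in Apcmin arrays and 10.94 ± 0.05 in WT arrays, while Kit, which the sort selected for, averaged 9.87 ± 0.18 in Apcmin arrays and 9.79 ± 0.18 in WT arrays. WT replicate 1 stood somewhat apart, with a median correlation of 0.975 to the other arrays against 0.983 to 0.987 for the other 5.

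Of the 29 genes, 12 were expressed by this measure. They were Slc14a1, F2r, Plek, Tbxas1, Selp, Pf4, Mmrn1, Gucy1a1, Rab27b, Cd9, Itgb3 and Gp9. Gp9, at a mean of 6.30, was the dimmest of them and lay below the 95th percentile of the genes of other tissues, while the other 11 lay above it. Gucy1a1, Rab27b, Cd9, Itgb3 and Gp9 were dimmer than Cela1, the brightest gene of other tissues. F5, at 5.95, lay just below the threshold. Counting F5, 9 genes lay between the background median and 6, and 8 lay below that median, among them Gp6, P2ry12, Clec1b and Alox12. Receptors and granule proteins were found both among the expressed genes and among those at background.

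**Figure D1:**
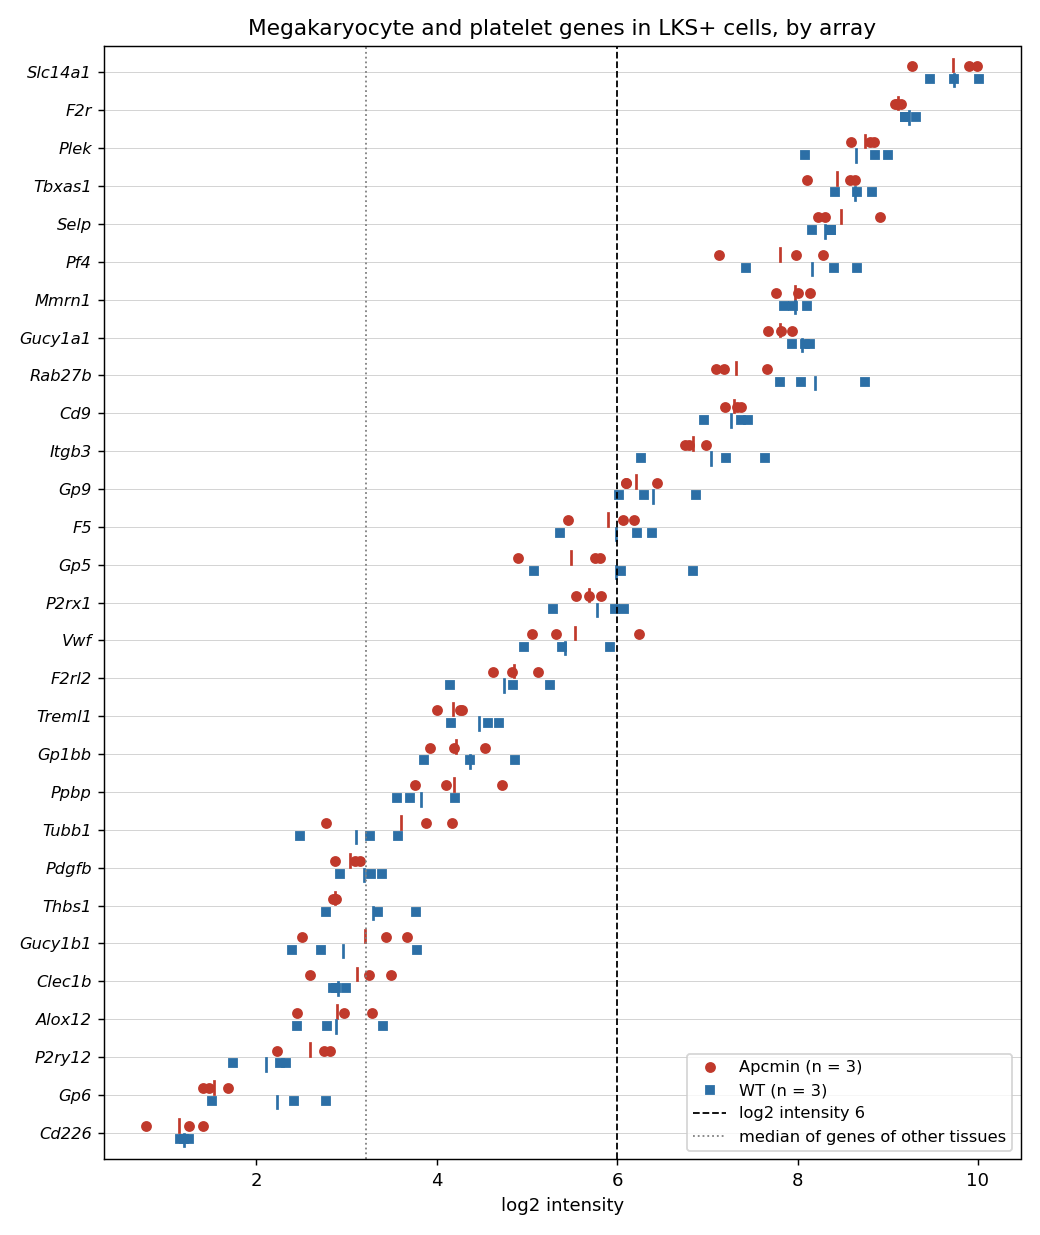
Log2 intensity of the 29 genes (rows, brightest at the top) on the 3 Apcmin arrays (circles) and the 3 WT arrays (squares), with a short bar at each group mean. The 12 genes down to Gp9 have a mean right of the dashed line at 6, the median of genes of other tissues is dotted, and the groups overlap in all rows but F2r and Rab27b.

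No gene of the list passed the test for a difference between the genotypes. With limma and Benjamini-Hochberg adjustment over 45037 probe sets, 0 of the 29 had an adjusted p under 0.05, as for all genes (0.00%), and 1 had an unadjusted p under 0.05, where 3.11% of all genes did. The list's median difference, Apcmin minus WT, was -0.09, against -0.04 over all genes. In 17 of the 29 the mean was lower in Apcmin and in 12 it was higher, and 57.0% of all genes were lower. The majority turned when a gene's probe sets were averaged, with 15 of the 29 higher in Apcmin. The 12 expressed genes had a median of -0.15, with 8 lower, where all genes at or above 6 had a median of 0.02 with 43.7% lower. With averaged probe sets the list's median was 0.0081. That of the same 12 expressed genes, of which 8 still reached 6, was -0.06. The groups did not overlap in 2 of the 29 genes, Rab27b and F2r, both lower in Apcmin. Over all genes 7.73% did not overlap, 4.76% lower and 2.97% higher in Apcmin, and over genes with a mean of at least 6 the share was 7.63%, with 3.48% lower. No difference in the list reached 1 on the log2 scale, a 2-fold change, and the median half-width of the 95% confidence intervals was 0.55 over the expressed genes. Without WT replicate 3 the unadjusted count was 5 of 29, where 12.9% of all genes had such a p, and 0 passed the adjusted threshold. In RNA from a sorted population, fewer cells of a type and less RNA per cell cannot be told apart.

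**Figure D2:**
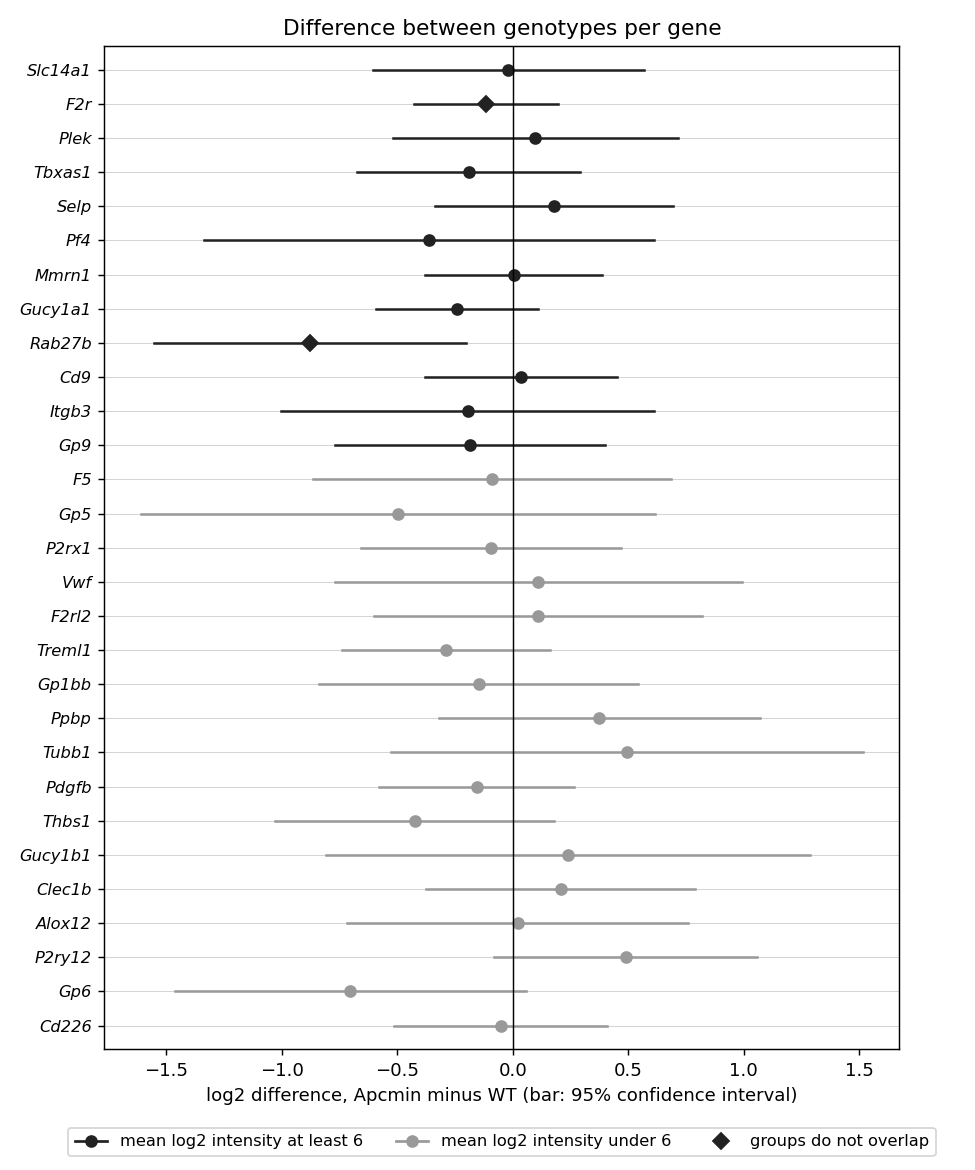
Log2 difference, Apcmin minus WT, for each gene with its 95% confidence interval, in the same order as the plot of levels. Black marks genes with a mean of at least 6 and grey the dimmer ones, diamonds mark the 2 genes whose groups do not overlap, and only the interval of Rab27b, from -1.55 to -0.20, leaves out 0.

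The probe sets that stand for Pf4, Gp5 and Selp had their lowest values in the same pair of arrays. Promoter sequences are shown for these genes and for F2r, the expressed gene of the list that varied least between arrays. Each is the 250 bases before the start of the gene, 5′ to 3′ on the gene's strand, from RefSeq on GRCm38.p6. The windows are chr5:90772185-90772434 on the plus strand for Pf4, chr16:30310782-30311031 on the minus strand for Gp5, chr1:164115014-164115263 on the plus strand for Selp and chr13:95618467-95618716 on the minus strand for F2r. Capitals mark GATAA, the core bound by GATA factors, and AGGAAG, a core bound by Ets factors, on either strand.
Pf4: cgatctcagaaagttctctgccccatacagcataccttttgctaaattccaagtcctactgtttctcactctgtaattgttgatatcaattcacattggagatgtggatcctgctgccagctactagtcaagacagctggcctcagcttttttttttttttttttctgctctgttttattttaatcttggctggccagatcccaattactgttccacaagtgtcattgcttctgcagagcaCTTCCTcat
Gp5: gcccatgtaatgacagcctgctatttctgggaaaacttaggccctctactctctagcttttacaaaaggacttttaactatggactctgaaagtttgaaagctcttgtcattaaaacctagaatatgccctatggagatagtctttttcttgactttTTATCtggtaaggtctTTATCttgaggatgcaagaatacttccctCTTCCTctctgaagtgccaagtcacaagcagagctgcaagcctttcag
Selp: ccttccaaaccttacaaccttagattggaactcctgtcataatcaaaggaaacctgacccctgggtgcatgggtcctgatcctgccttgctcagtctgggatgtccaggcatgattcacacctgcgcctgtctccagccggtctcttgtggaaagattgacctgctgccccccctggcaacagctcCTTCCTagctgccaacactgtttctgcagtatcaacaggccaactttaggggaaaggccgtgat
F2r: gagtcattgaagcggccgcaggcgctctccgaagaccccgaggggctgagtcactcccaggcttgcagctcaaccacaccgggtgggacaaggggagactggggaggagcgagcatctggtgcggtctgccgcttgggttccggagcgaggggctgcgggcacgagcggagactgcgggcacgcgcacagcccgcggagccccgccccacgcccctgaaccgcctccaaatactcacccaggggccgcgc
The Gp5 window held 2 GATAA matches and 1 AGGAAG match, the Pf4 and Selp windows each held 1 AGGAAG match and no GATAA, and the F2r window held neither. Windows were at hand for 22 of the 29 genes, 23 windows in all since Gucy1a1 has a pair. GATAA occurred in 8 of the 23 and in 22.6% of all 32851 windows of that length, and AGGAAG in 11 of the 23 and in 29.5% of all. Both occurred in 3 of the 23, those of Gp5, Gp9 and F2rl2, and in 6.58% of all windows. A match describes the letters in a window and does not show a bound site.

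Of the 9 receptors for adhesive ligands, 7 averaged lower and 2 higher in Apcmin, with a median difference of -0.19 and none past the test. Of the 6 with a mean under 6, 5 were lower, where 69.1% of all genes under 6 were. Of the 3 at or above 6, 2 were lower, where 43.7% of all such genes were. Cd9, Itgb3 and Gp9 were expressed. Gp9, glycoprotein IX, was at 6.10, 6.10 and 6.44 in Apcmin arrays and at 6.30, 6.87 and 6.02 in WT arrays, a difference of -0.19. Gp5, glycoprotein V, was at 5.75, 4.90 and 5.81 in Apcmin arrays and at 6.84, 6.04 and 5.08 in WT arrays. The highest Gp5 value was that of WT replicate 1, the lowest values were those of Apcmin replicate 2 and WT replicate 3, and the groups overlapped. The Gp5 difference was -0.50 (standard error 0.47, limma adjusted p = 0.954), and it was -0.07 without WT replicate 1 and -0.95 without WT replicate 3. Gp1bb, the beta chain of glycoprotein Ib, averaged 4.22 ± 0.30 in Apcmin and 4.36 ± 0.51 in WT, within the range of genes of other tissues.

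Itgb3, integrin beta3, the partner of alphaIIb in the fibrinogen receptor, was at 6.98, 6.75 and 6.79 in Apcmin arrays and at 6.27, 7.20 and 7.64 in WT arrays. The WT values spread over 1.37 and enclosed the Apcmin values, so the difference of -0.19 was smaller than the WT spread, and it was 0.11 without WT replicate 3 and -0.58 without WT replicate 1. The other Itgb3 probe set was dim, at a mean of 2.71. Itga2b, the alphaIIb chain, which belongs to a further list of megakaryocyte genes, had a mean of 6.30 and a difference of -0.05.

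Gp6, the collagen receptor glycoprotein VI, had a large difference at the bottom of the scale. It was at 1.41, 1.69 and 1.48 in Apcmin arrays and at 2.77, 2.41 and 1.51 in WT arrays, a difference of -0.70 (standard error 0.32, limma adjusted p = 0.954). It was -0.43 without WT replicate 1 and -1.06 without WT replicate 3. The genes of other tissues went the same way, with 26 of 31 lower in Apcmin and a median difference of -0.20. All Gp6 values lay below 4, and the part of background in this difference was not tested. Clec1b, the podoplanin receptor CLEC-2, and Cd226, an adhesion receptor of platelets and lymphocytes, were also at background, with means of 3.01 and 1.17. Treml1, a receptor stored in alpha granules, was at 4.26, 4.004 and 4.28 in Apcmin arrays and at 4.57, 4.68 and 4.16 in WT arrays, a difference of -0.29. Only WT replicate 3 kept the Treml1 groups from separating, and the difference was -0.44 without it and -0.18 without WT replicate 2. Cd9, a tetraspanin of the platelet surface, was expressed and differed by 0.04, with 7.30 ± 0.09 in Apcmin and 7.26 ± 0.26 in WT.

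Of the 8 granule cargo and adhesive proteins, 4 averaged higher and 4 lower in Apcmin, and Pf4, Selp and Mmrn1 were expressed. Pf4, the alpha-granule chemokine platelet factor 4, was at 8.29, 7.13 and 7.98 in Apcmin arrays and at 8.41, 8.66 and 7.43 in WT arrays. Apcmin replicate 2 and WT replicate 3 were the lowest, the groups overlapped, and Pf4 varied over 1.52 between arrays. Its difference was -0.36 (standard error 0.41, limma adjusted p = 0.954), and it was -0.030 without Apcmin replicate 2 and -0.73 without WT replicate 3. Ppbp, the neighbouring chemokine of platelet granules, was dim, at 4.73, 3.76 and 4.10 in Apcmin arrays and at 3.56, 4.20 and 3.70 in WT arrays. The Ppbp difference was 0.37, and it was 0.11 without Apcmin replicate 1 and 0.59 without Apcmin replicate 2.

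Selp, P-selectin, was at 8.31, 8.22 and 8.91 in Apcmin arrays and at 8.37, 8.37 and 8.16 in WT arrays. Apcmin replicate 3 was the highest array for Selp in all 3 of its probe sets, at 8.91, 7.26 and 6.26. The difference of 0.18 was smaller than the spread of the Apcmin arrays, and without Apcmin replicate 3 it was -0.037. Vwf, von Willebrand factor, was likewise highest in Apcmin replicate 3, at 6.24, and its other Apcmin values were 5.32 and 5.05, against 5.38, 5.93 and 4.97 in WT arrays. Mmrn1, multimerin 1, which binds factor V in alpha granules, varied little. It was at 8.01, 8.14 and 7.77 in Apcmin arrays and at 7.95, 7.85 and 8.10 in WT arrays. Its difference was 0.0033, with a 95% confidence interval from -0.38 to 0.39.

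F5, coagulation factor V, averaged 5.90 ± 0.40 in Apcmin and 5.99 ± 0.55 in WT. Pdgfb, the B chain of platelet-derived growth factor, was at background, with a mean of 3.12. Thbs1, thrombospondin 1, was dim in both of its probe sets. The one that stands for the gene was at 2.89, 2.88 and 2.85 in Apcmin arrays and at 3.77, 3.35 and 2.77 in WT arrays, a difference of -0.43. It was -0.19 without WT replicate 1 and -0.69 without WT replicate 3. The other Thbs1 probe set had a nearly equal mean of 3.06 and was far more variable, at 2.69, 1.38 and 4.76 in Apcmin arrays and at 2.34, 5.58 and 1.61 in WT arrays. Apcmin replicate 3 and WT replicate 2 were high in it, 1 array of each genotype.

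Of the agonist receptors, F2r alone was expressed. F2r encodes the thrombin receptor PAR1, which mouse platelets lack although human platelets carry it. It was at 9.15, 9.08 and 9.11 in Apcmin arrays and at 9.31, 9.19 and 9.19 in WT arrays, and the groups did not overlap. The difference was -0.12 (standard error 0.13), an Apcmin level 0.92 times that of WT, with an adjusted p of 0.954 in limma. The second F2r probe set was at 7.85, 7.64 and 7.62 in Apcmin arrays and at 8.17, 7.93 and 7.83 in WT arrays, a difference of -0.27 with overlap between Apcmin replicate 1 and WT replicate 3. Leaving out any 1 array kept the F2r difference between -0.14 and -0.08.

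The thrombin receptors that mouse platelets do use were below 6. F2rl2, PAR3, averaged 4.86 ± 0.25 in Apcmin and 4.75 ± 0.56 in WT, and F2rl3, PAR4, a gene of the further list, had a mean of 5.63 and a difference of 0.09. P2rx1, an ATP-gated channel, averaged 5.68 ± 0.14 in Apcmin and 5.78 ± 0.43 in WT. P2ry12, the ADP receptor blocked by clopidogrel, was at background, with 2.23, 2.82 and 2.75 in Apcmin arrays and 1.74, 2.26 and 2.33 in WT arrays. Its difference of 0.49 (limma adjusted p = 0.954) had the opposite sign to the median of all genes under 6, -0.12, and Apcmin replicate 1 lay within the WT range. Without WT replicate 1 the P2ry12 difference was 0.30.

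Among the enzymes of eicosanoid synthesis, Tbxas1, thromboxane A synthase, was expressed and Alox12, the platelet 12-lipoxygenase, was not. Tbxas1 was at 8.11, 8.64 and 8.58 in Apcmin arrays and at 8.66, 8.82 and 8.41 in WT arrays. The difference of -0.19 was -0.023 without Apcmin replicate 1 and -0.30 without WT replicate 3. Alox12 averaged 2.90 ± 0.42 in Apcmin and 2.88 ± 0.48 in WT.

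Of the genes for signalling, cytoskeleton and secretion, Rab27b had the largest difference of the list. Rab27b encodes a small GTPase of dense granule secretion. It was at 7.66, 7.10 and 7.19 in Apcmin arrays and at 8.74, 8.03 and 7.80 in WT arrays, so that every Apcmin array lay below every WT array. The difference was -0.88, an Apcmin level 0.54 times that of WT, with a standard error of 0.28, an unadjusted p of 0.0183 and an adjusted p of 0.954 in limma. It stayed between -1.07 and -0.60 when any 1 array was left out. The 3 other Rab27b probe sets were dimmer, with means of 4.57, 4.31 and 2.89, and all had the opposite sign, with differences of 0.49, 0.22 and 0.20. Averaged over all 4 probe sets the difference was 0.0081, and WT replicate 1, the highest array in the brightest probe set, was the lowest array in each of the other 3.

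Plek, pleckstrin, a major substrate of protein kinase C in platelets, was low in 1 WT array. It was at 8.81, 8.59 and 8.84 in Apcmin arrays and at 8.09, 9.001 and 8.86 in WT arrays, and WT replicate 1 was also the lowest array in both other Plek probe sets. The difference of 0.10 became -0.18 without that array. Gucy1a1, the alpha1 subunit of the nitric oxide receptor guanylate cyclase, was at 7.67, 7.94 and 7.82 in Apcmin arrays and at 7.94, 8.13 and 8.08 in WT arrays. Only Apcmin replicate 2 reached the WT values, by less than 0.01, and the difference was -0.24 (standard error 0.15, limma adjusted p = 0.954). The other Gucy1a1 probe sets were dim, with means of 3.71 and 2.74 and differences of 0.013 and -0.14. Averaged over all its probe sets the Gucy1a1 difference was -0.12. Gucy1b1, the beta1 subunit of the same enzyme, was at background in both its probe sets, with 3.20 ± 0.62 in Apcmin and 2.96 ± 0.73 in WT in the brighter one.

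Slc14a1, a urea transporter of red cells, was at 9.90, 9.27 and 9.99 in Apcmin arrays and at 10.01, 9.74 and 9.47 in WT arrays. Apcmin replicate 2 and WT replicate 3 were again the lowest, and the difference was -0.02. Tubb1, the beta1-tubulin of the platelet marginal band, was dim, at 3.88, 2.77 and 4.17 in Apcmin arrays and at 2.49, 3.27 and 3.58 in WT arrays. Its difference of 0.49 was within the spread of either group, and it was 0.18 without WT replicate 1 and 0.91 without Apcmin replicate 2.

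**Figure D3:**
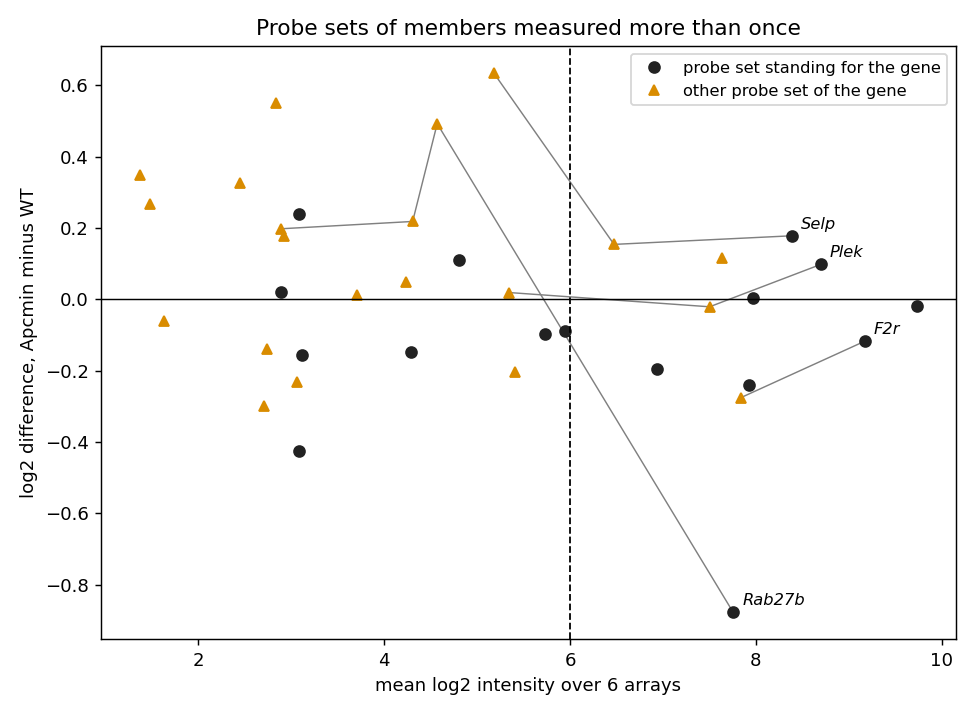
Log2 difference, Apcmin minus WT, against mean log2 intensity for every probe set of the 16 genes measured by more than 1. Circles are the probe sets that stand for a gene and triangles the others, and grey lines join those of Selp, Plek, F2r and Rab27b, and the dashed line is at 6. The 3 dimmer Rab27b probe sets lie above 0 and the brightest lies at -0.88, while both F2r probe sets lie below 0.

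Probe sets of 1 gene disagreed as often as they agreed. Of 16 genes with more than 1 probe set, all had the same sign in 8, among them F2r, Selp, Itgb3 and Mmrn1, and not in the other 8, among them Rab27b, Gucy1a1, Plek and Slc14a1. Where a second probe set also lay above 6, as for F2r, Selp, Plek and Slc14a1, the sign was shared in F2r and Selp. The Plek differences were 0.10 and -0.02 and the Slc14a1 differences -0.02 and 0.12, each within the spread of the arrays.

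The expressed genes of the list varied between arrays to unequal degrees. The range over the 6 arrays had a median of 0.75 over the 12 genes and of 0.48 over the 8658 genes with a mean of at least 6. It was above 0.48 in 9 of the 12 and below it in F2r, Mmrn1 and Gucy1a1. Rab27b, Pf4, Itgb3 and Plek had the widest ranges and F2r the narrowest, 0.22. For 8 of the 29 genes the 2 lowest values were those of Apcmin replicate 2 and WT replicate 3, against 10.5% of all genes. The 8 were Pf4, Gp1bb, Gp5, Vwf, Treml1, Selp, Slc14a1 and Alox12. This holds for the probe sets that stand for the genes, and for the other one of Slc14a1. The other Selp and Gp1bb probe sets were lowest in Apcmin replicate 2 and WT replicate 1. That of Alox12 was lowest in Apcmin replicate 3 and WT replicate 3. Among the 12 expressed genes, 3 were lowest in this pair of arrays, against 6.69% of all genes at or above 6. In the further list of megakaryocyte and platelet genes 4 of 36 were, or 11.1%. This pair was picked after the values were seen, and it joins 1 array of each genotype.

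Erythroid genes, fixed as markers of a neighbouring lineage, were lowest in the same 2 arrays in 11 of 17 cases. Car2, carbonic anhydrase 2 and the brightest of them, varied little, at 12.12, 11.86 and 12.05 in Apcmin arrays and at 11.94, 11.91 and 11.81 in WT arrays. Car1, carbonic anhydrase 1 and the next brightest, was at 11.20, 10.19 and 11.34 in Apcmin arrays and at 10.94, 11.03 and 10.08 in WT arrays. The dip was not shared by Hba-a2, an alpha-globin gene, which was highest in WT replicate 3, at 10.33. The summed linear intensity of the 17 erythroid genes was 8418 in Apcmin replicate 2 and 8216 in WT replicate 3, and between 10269 and 12338 in the other 4 arrays. Gata1, a transcription factor that megakaryocytes and red cell precursors share, was at 7.97, 7.03 and 8.14 in Apcmin arrays and at 8.12, 7.48 and 7.01 in WT arrays. Gfi1b, a repressor of both lineages, was at 8.10, 7.41 and 8.35 in Apcmin arrays and at 7.89, 8.43 and 6.99 in WT arrays. Both were chosen for their pattern after the values were seen. Of 13 measured transcription factors of the megakaryocyte lineage, 3 were lowest in these 2 arrays, namely Gata1, Gfi1b and Zfpm1. The part of an erythroid contribution in the Pf4, Gp5 and Slc14a1 values was not tested. Without these 2 arrays the list's median difference was -0.01 and that of the 12 expressed genes -0.07, with 14 of 29 genes higher in Apcmin.

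**Figure D4:**
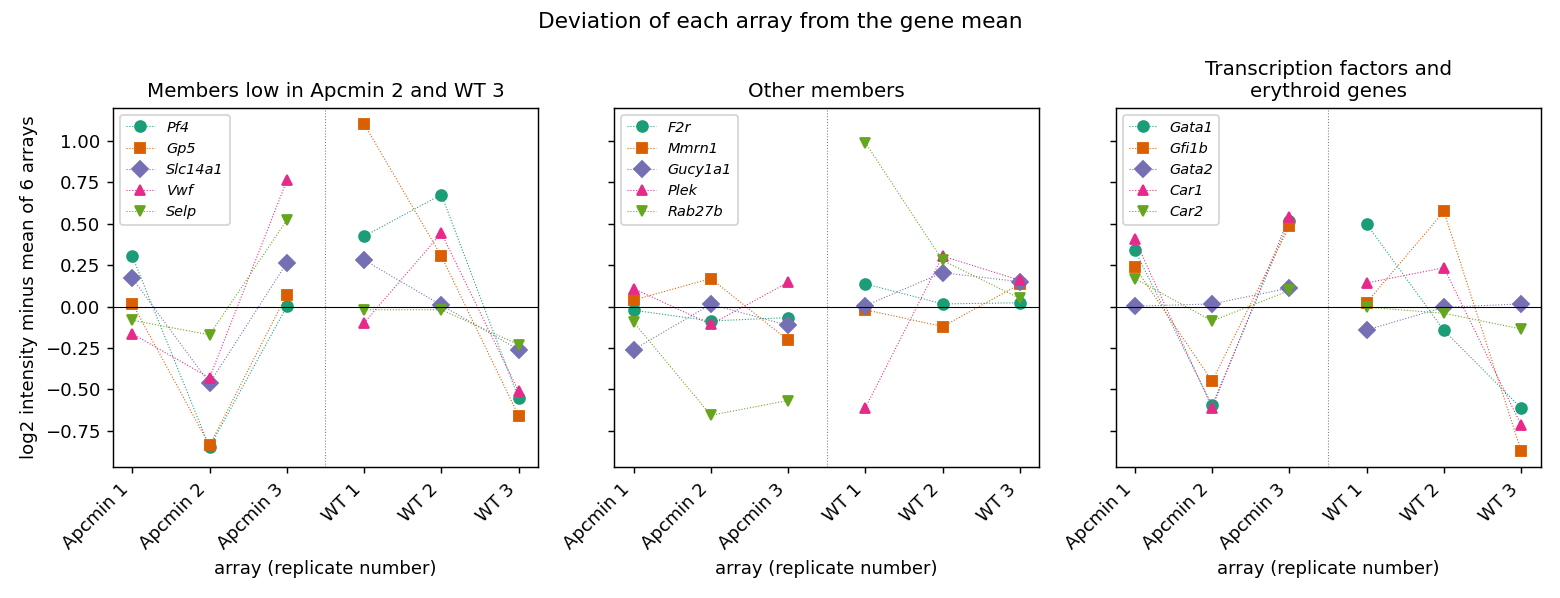
Log2 intensity of each array minus the gene's mean over 6 arrays, with the Apcmin arrays left of the WT arrays, for 5 genes of the list lowest in Apcmin replicate 2 and WT replicate 3 (left), 5 other genes of the list (middle) and transcription factor and erythroid genes (right). Each gene is shown by the probe set that stands for it. Dotted lines join the points of a gene and imply no order among replicates. Pf4, Gp5, Gata1, Gfi1b and Car1 dip in both arrays, and F2r, Mmrn1 and Gata2 do not.

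The transcription factors of the megakaryocyte lineage were bright in LKS+ cells, with 12 of 13 measured reaching 6. So did 12 of 13 genes of stem and multipotent cells, and 47.6% of all genes. None of the 13 transcription factors passed the test or separated the groups. Their median difference was 0.08, with 9 higher and 4 lower in Apcmin. Gata2, Nfe2 and Mef2c, the 3 brightest, had means of 10.59, 10.01 and 10.01 and differences of 0.09, -0.07 and -0.02. Those with the smallest p were Ldb1, an adaptor of the GATA1 and TAL1 complex (-0.20), Ets1 (0.32) and Fli1 (0.27), an Ets factor needed for megakaryocyte maturation. Other probe sets shared the sign in 1 of 3 for Ets1, 1 of 4 for Mef2c, 0 of 1 for Gata2 and 1 of 1 for Fli1. Fli1 was at 9.09, 8.53 and 8.67 in Apcmin arrays and at 8.35, 8.17 and 8.97 in WT arrays, with overlap.

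The further list of 36 measured megakaryocyte and platelet genes likewise held 0 that passed, and 26 were expressed. The dimmest of these, from Trpc6 at 6.62 to Tbxa2r at 6.05 and Itga2b among them, lay below the background's 95th percentile of 6.69. Of the 36, 1 had an unadjusted p under 0.05 in limma, where 3.11% of all genes did. The groups did not overlap in 3, where 7.73% of all genes did not. In 13 the mean was higher and in 23 lower in Apcmin, with a median of -0.07. Its brightest genes were Srgn, the proteoglycan core of granules, Angpt1, angiopoietin 1, and Itga6, integrin alpha6, with differences of -0.02, 0.07 and -0.002. Those with the smallest p were Itga2, the alpha chain of the collagen integrin (-0.67), Clec2l (-0.52) and Plcg2, a phospholipase downstream of GPVI and CLEC-2 (0.27). Itga2 and Clec2l had means of 3.44 and 2.63, at background. Plcg2 was at 9.33, 9.34 and 9.39 in Apcmin arrays and at 8.86, 9.04 and 9.33 in WT arrays, and the groups did not overlap by a margin under 0.01.

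Endothelial cells share Vwf, Selp, Thbs1 and Mmrn1 with megakaryocytes, and their markers were examined beside them. Of 18 endothelial genes, 5 averaged higher and 13 lower in Apcmin, where 57.0% of all genes were lower. The 18 summed to between 1364 and 1512 in linear intensity in Apcmin arrays and to between 1553 and 1646 in WT arrays, sums weighted towards the brightest of the 18. The brightest were Icam2, which blood cells also express, at 8.88 ± 0.05 in Apcmin and 9.08 ± 0.07 in WT, and Egfl7, at 8.20 ± 0.34 in Apcmin and 8.47 ± 0.06 in WT. Of the 18, 6 reached 6, among them Tie1, Emcn, Tek and Robo4 with means of 7.42, 7.26, 7.13 and 6.32. The 12 endothelial genes under 6 had a median of 3.07, against 3.22 for genes of other tissues. The 3 dimmest, Cdh5, Sele and Sox17, had means of 2.20, 1.92 and 1.64, below the median of genes of other tissues. Ramp2, with a mean of 4.78, had the smallest p of the 18 and was higher in Apcmin. It was at 5.30, 5.52 and 5.28 in Apcmin arrays and at 3.91, 4.30 and 4.38 in WT arrays. Its difference was 1.17, with an adjusted p of 0.954 in limma. Of 14 monocyte and macrophage genes, 3 averaged higher and 11 lower in Apcmin, with Lyz2 and Csf1r the brightest. Of the 10 with a mean under 6, 7 were lower, where 69.1% of all genes under 6 were. The 4 at or above 6 were all lower, where 43.7% of all such genes were. The 14 summed to between 2055 and 2299 in Apcmin arrays and to between 2300 and 2403 in WT arrays. These ranges nearly met, at 2299.49 and 2300.27. The part of either list in the differences given above was not tested.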

How the data were processed

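LKS+ cells were sorted at 20000 or more per mouse with a purity above 90%, and amplified RNA was hybridized to Affymetrix mouse genome arrays, per the labels' protocols. Per the submitters' processing notes the authors used RMA, with no version or background step stated there, and the intensities they deposited, 1 for each probe set, are normalized and linear. There are no detection calls and no scan dates, and the number of arrays limits the precision. Intensities were taken to log2 with no pseudocount. Of 45101 probe sets, 64 controls were left out. Exactly 1 symbol was listed for 34945, several for 932 and none for 9160, and a gene was represented by its probe set with the highest mean among those with 1 symbol. Apcmin was compared with WT by limma 3.58.1 in R 4.3.3 (lmFit and eBayes on genotype alone), adjusted by Benjamini-Hochberg at 0.05, after a check on simulated data. The p-values measure the spread between arrays, which no label ties to named animals. Members and lists were chosen with earlier results of these data known. Values by array are given for the 8 brightest genes, the 8 with the smallest p, the 4 with the largest difference and the 4 expressed genes with the widest range, with their other probe sets where signs disagree. From the further megakaryocyte lists the rule took the 3 brightest and the 3 with the smallest p, and from marker lists the 2 brightest. Other values by array, and F2rl3, Itga2b, Trpc6, Tbxa2r, Gata1, Gfi1b, Hba-a2, Kit, Slamf1, Fgd5, Tie1, Emcn, Tek, Robo4, Cdh5, Sele, Sox17 and Ramp2, were chosen after their values were seen. Alternatives covered arrays left out, a replicate block, normalization, probe set choice, a floor, filters, a pseudocount, array weights and a variance trend. Same-numbered arrays did not deviate together (r between -0.23 and -0.05 over probe sets), and the main fit did not pair them. With 3 arrays per genotype this check cannot show that they were handled apart.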

Additional observations from a re-analysis of the deposited data

How the results depend on the processing

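No alternative called any of the 29 genes, nor any probe set where probe sets were tested. Probe sets with an unadjusted p under 0.05 numbered 1714, 5864 without WT replicate 3 and 4272 without both Apcmin replicate 2 and WT replicate 3, an alternative added after seeing the data. The count was 2717 with array weights, 911 with a floor at 4, 486 after a filter at 6 and 1398 with the replicate block, which called 0 and changed no other call. Between 0 and 5 of the 29 genes were at that p. The 5 were without WT replicate 3, where 12.9% of all genes were, and 4 were without both arrays, where 8.75% were. In the other alternatives at most 2 were, with between 1.97% and 5.43% of all genes. The list's median lay between -0.16 and -0.03 without each array in turn and was 0 with the floor, and that of expressed genes lay between -0.18 and -0.08. Genes higher in Apcmin numbered 9 to 13 without each array, 15 with averaged probe sets, 10 after quantile normalization, 8 with the floor and 4 of the 12 left by the filter. Genes whose groups did not overlap numbered 2 to 9 without each array (9 without WT replicate 3, where 32.8% of all genes did not overlap, and 2 to 7 without another, where 13.8% to 17.2% did not). Without both arrays they numbered 12, with 44.7% of all genes. Expressed genes numbered 16 at a threshold of 5, 10 at 7 and 8 with averaged probe sets. Of the recomputed gene differences 64 equalled the value given, most of them by construction, 166 moved with the same sign and 15 changed sign. Without each array, Slc14a1 ran from -0.16 to 0.21, Plek from -0.18 to 0.27, Selp from -0.037 to 0.31, Mmrn1 from -0.080 to 0.11 and Itgb3 from -0.58 to 0.11. Mmrn1 was -0.020 after a further quantile normalization. With averaged probe sets Slc14a1 was 0.048 and Rab27b 0.0081. Without both arrays Slc14a1 was 0.073, Mmrn1 -0.012, Itgb3 0.15 and Plek 0.28. With the floor Gp6, Thbs1 and P2ry12 gave no value, since all arrays lay under it. The cause was not tested.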
